A study of Mus musculus with 12 samples.

Results

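Retinas of Pilrb1/2 knockout mice were compared with retinas of wild-type mice at 12 months of age. The members are the 6 libraries of that age out of 12 in the series, 3 labelled Pilrb1/2 -/- and 3 labelled Pilrb1/2+/+. The other 6 libraries come from mice 28 days old (P28) and entered the fits to estimate the spread, and their values are given beside a few results. Per the series text, the region with Pilra, Pilrb1 and Pilrb2 was removed by CRISPR editing of C57BL/6J zygotes and the line was crossed back to C57BL/6J, while the sample labels give Pilrb1/2 as the only genotype. The edit is in the germline, with no promoter or Cre that restricts it to the retina. Nothing in the labels ties libraries to individual mice, so p-values measure the spread between these libraries, which may be technical. Poly(A) RNA of whole retina was sequenced, and the deposited gene values are CPM, reads of a gene scaled to a fixed library size. Of 53028 genes in the table, 16486 reached a CPM of 1 in at least 3 of the 12 libraries and were tested.

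Pilrb1 and Pilrb2 encode activating paired immunoglobulin-like type 2 receptors of the mouse, which signal through the adaptor DAP12, and Pilra encodes the inhibitory member of the pair. They are best known on myeloid cells. The retina itself is dominated by rod photoreceptors, with cones, inner neurons, Mueller glia and a few vascular and immune cells, and photoreceptors are known for a high demand for glycolysis and oxidative phosphorylation to feed the phototransduction cascade.

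The labelled tissue was borne out by its markers. Gnat1, rod transducin alpha, was at 3720, 2497 and 3998 CPM in the knockout libraries and at 7564, 6543 and 6640 CPM in the wild-type libraries. The estimated depth was 17.1 to 21.1 M reads in knockout and 22.4 to 25.9 M reads in wild type, where 3 reads correspond to 0.156 to 0.192 CPM and 0.111 to 0.132 CPM, a floor that covers counting error only. Xist, the RNA of the inactive X chromosome, was at 16.3, 6.37 and 4.94 CPM in knockout and at 4966, 5528 and 6.63 CPM in wild type. All 3 knockout libraries and wild-type library 3 thus read as male and wild-type libraries 1 and 2 as female, so sex and genotype are partly confounded. Knockout library 2 stood apart by its lens transcripts, which summed to 736 CPM against 56.8 CPM or less in the other 5 libraries.

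The targeted genes could not check the labels. Pilrb1 was listed at 0.052 CPM in knockout library 2, about 1 read, and at 0 in the other 5 libraries. Pilrb2 was listed at 0.0436 CPM in wild-type library 1, also about 1 read, and at 0 in the rest. Pilra was at 0.0556, 0.309 and 0.293 CPM in knockout and at 0.159, 0.221 and 0.268 CPM in wild type, and the groups overlapped (0.219 ± 0.142 in knockout and 0.216 ± 0.0549 in wild type, mean ± SD over 3 libraries; a two-sided exact permutation test gave p = 1, where 0.1 is the smallest possible). In reads this is about 0.869, 5.93 and 5.08 in knockout and 3.64, 5.01 and 7.27 in wild type, so that knockout libraries 2 and 3 hold Pilra signal above the floor of 3 reads although the series text gives Pilra as deleted. The 2 Pilrb genes were below that floor in every library of both genotypes.

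The most general difference between the genotypes followed base composition. Genes whose transcripts were poor in G and C were higher in knockout and genes rich in them were lower. In the tenth of genes with the lowest GC content, 24.5 to 41.0% GC, the median log2 change was 0.47, and in the tenth with the highest, 56.5 to 74.2% GC, it was -0.76. Rp1 and Hnrnpa2b1 from the low end and Eno1 and Rom1 from the high end are shown by their first 120 coding bases, with G and C in capitals. They are the 2 most abundant coding genes at each end that were higher (low GC) or lower (high GC) in knockout by the test described below, with 1 chromosome left out of the choice. The sequences are of the most abundant coding transcript and are credited to GENCODE M21, build GRCm38.
Rp1 (chromosome 1, 3999557 to 4409241, minus strand; the printed stretch is 42.5% GC): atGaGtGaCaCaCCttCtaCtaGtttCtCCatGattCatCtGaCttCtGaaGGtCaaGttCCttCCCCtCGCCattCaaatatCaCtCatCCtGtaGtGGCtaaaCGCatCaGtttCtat
Hnrnpa2b1 (chromosome 6, 51460932 to 51469894, minus strand; 41.7% GC): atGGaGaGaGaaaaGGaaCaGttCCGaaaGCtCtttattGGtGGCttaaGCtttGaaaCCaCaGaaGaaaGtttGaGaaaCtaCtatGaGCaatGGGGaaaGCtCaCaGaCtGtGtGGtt
Eno1 (chromosome 4, 150236721 to 150248879, plus strand; 56.7% GC): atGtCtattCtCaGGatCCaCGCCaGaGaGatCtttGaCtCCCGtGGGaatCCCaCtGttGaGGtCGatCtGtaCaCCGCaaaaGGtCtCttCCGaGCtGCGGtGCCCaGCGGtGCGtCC
Rom1 (chromosome 19, 8927391 to 8929356, minus strand; 66.7% GC): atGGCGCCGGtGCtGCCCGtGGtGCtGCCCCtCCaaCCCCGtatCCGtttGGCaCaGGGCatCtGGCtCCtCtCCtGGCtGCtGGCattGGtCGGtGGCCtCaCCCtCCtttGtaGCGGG

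The values of these 4 genes show the pattern in single libraries. Rp1, a microtubule-associated protein of the outer segment, was at 4524, 4211 and 3617 CPM in knockout and at 2948, 3010 and 2543 CPM in wild type. Rom1, a tetraspanin of outer segment discs, was at 358, 225 and 399 CPM in knockout and at 670, 570 and 670 CPM in wild type. The groups did not overlap in either gene, and both genes were chosen among those that passed the test on deposited values. Hnrnpa2b1, a splicing factor, had a log2 change of 0.60 ± 0.12, and Eno1, the glycolytic enolase, one of -0.68 ± 0.17 (± is the limma standard error throughout). Once trends with GC content and length were removed from every library, the log2 changes were 0.04 for Rp1, 0.21 for Hnrnpa2b1, 0.03 for Eno1 and -0.29 for Rom1, and none of the 4 passed the test (adjusted p of 0.135 or more).

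Across 16274 genes with a known sequence the Spearman correlation of the log2 change with GC content was -0.79, given as a description since genes share libraries. It was -0.35 at P28 and -0.03 after the trends were removed. The slope of log2(CPM + 1) on GC within single libraries, relative to the mean of all, was -0.35, -0.59 and -0.21 per 10 points in knockout and 0.29, 0.15 and 0.30 in wild type. Each knockout library thus leaned the same way, with knockout library 2 the steepest. The pattern was also present between transcripts of the same gene. Among 1322 genes whose 2 most abundant transcripts differed by at least 5 points in GC, the GC-richer transcript had the lower log2 change in 1102 genes (83.4%), with a median difference of -0.54. Depth was lower in each knockout library than in any wild-type library, and its part in this trend was not tested.

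**Figure D1:**
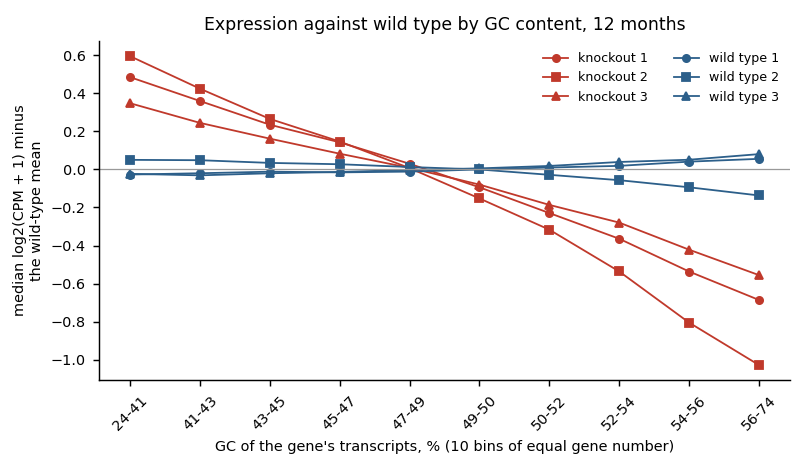
Median difference of log2(CPM + 1) from the wild-type mean (vertical axis) in 10 bins of equal gene number by GC content of the transcripts (horizontal axis, percent), 1 line for each 12-month library, knockout in red and wild type in blue. The 3 knockout lines fall from between 0.35 and 0.60 in the lowest bin to between -0.56 and -1.03 in the highest, while the wild-type lines stay between -0.14 and 0.08.

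Genes were tested with limma on log2(CPM + 1), with Benjamini-Hochberg adjustment at 0.05 over all tested genes, on the values as deposited and again with the GC and length trends removed. On deposited values 6536 of 16486 genes passed (39.6%), 2655 higher (16.1%) and 3881 lower (23.5%) in knockout. With the trends removed 723 of 16274 passed (4.44%), 368 higher (2.26%) and 355 lower (2.18%), and 517 genes (3.18%) passed in the same direction in both fits, 193 higher and 324 lower. A single gene passed in opposite directions. Quantile normalization before trend removal gave 651 higher and 1125 lower. The trend-removed calls depended on individual libraries: 2 were left without wild-type library 1, 40 without wild-type library 2, 39 without wild-type library 3, 313 without knockout library 1, 7 without knockout library 2 and 645 without knockout library 3. With a term for sex 0 genes passed in limma (2719 at an unadjusted p under 0.05), and among the male libraries 2 did. The log2 change of each of the 723 genes kept its sign in the fits without 1 library, with the sex term and in the male libraries, and 717 did so after quantile normalization. Every gene named below as passing with the trends removed therefore lost its call with the sex term. On deposited values the count was 3933, 4202 and 3552 without wild-type library 1, wild-type library 3 and knockout library 2, and 2597 in the male libraries.

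The largest rises after trend removal included Tox2, Fgfbp3, Hspa1b and Hnrnpa0. The 12 named are those of largest change among 142 that passed in both fits, did not overlap between the genotypes and reached a mean of 5 CPM in a group. Each of the 12 had a larger log2 change with the trends removed than as deposited. For Pawr, at 56.4% GC, it was 0.39 as deposited and 1.05 with the trends removed, and for H3c14, at 48.8% GC, 1.20 and 1.25. The size and rank of these rises thus depend on the trend removal. The groups of 59.1% of all tested genes did not overlap on deposited values, 27% with knockout higher and 32.2% with knockout lower. Tox2, an HMG-box transcription factor, was at 36.9, 54.9 and 46.3 CPM in knockout and at 17.6, 19.3 and 25.04 CPM in wild type. Fgfbp3, which binds and carries fibroblast growth factors, was at 16.6, 14.8 and 15.96 CPM in knockout and at 4.77, 6.43 and 6.39 CPM in wild type. The lowest knockout library was thus more than 2 times the highest wild-type library for Fgfbp3, and for Tox2 1 wild-type library came closer. Fgfbp3 had a log2 change of 1.3 ± 0.22 (adjusted p = 0.00283), or 1.65 with the trends removed (adjusted p = 0.0148). Tox2 had one of 1.12 ± 0.32 (adjusted p = 0.017), or 1.73 with the trends removed (adjusted p = 0.031).

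Hnrnpa0, a nuclear RNA-binding protein, was at 129, 173 and 136 CPM in knockout and at 78.3, 87.0 and 97.8 CPM in wild type. Hspa1b, the inducible HSP70 chaperone, was at 26.3, 25.6 and 19.5 CPM in knockout and at 13.2, 13.7 and 16.98 CPM in wild type. Its neighbour Hspa1a, nearly identical in sequence, shares reads with it and was at 21.0, 17.3 and 19.7 CPM in knockout and at 14.9, 13.6 and 19.8 CPM in wild type, where the groups overlapped. H3c14, a histone H3 gene of a family with shared reads, was at 59.9, 58.8 and 51.5 CPM in knockout and at 19.9, 22.5 and 31.3 CPM in wild type. For the 3 genes other than Hspa1a each knockout library was above each wild-type library. Their log2 changes with the trends removed were 1.29 for Hnrnpa0, 1.36 for Hspa1b and 1.25 for H3c14 (adjusted p 0.0209 to 0.0338). The other named rises were in Otud1, a deubiquitinase (1.34), the KH-domain RNA-binding gene Mex3b (1.17), the CXXC zinc finger gene Cxxc5 (1.12), Pawr, a regulator of apoptosis (1.05), Erdr1 (1.1), Sowaha (1.07) and the opposite-strand RNA N4bp2os (1.64), given as log2 changes with the trends removed.

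The largest falls included Bola2, Pde6h and Atp5g1, named from 283 genes by the same rule. Bola2, of iron-sulfur cluster assembly, was at 0.768, 0.587 and 0.772 CPM in knockout and at 7.58, 3.26 and 6.69 CPM in wild type. Knockout library 2 was the lowest of all 6, and no knockout library reached the lowest wild-type one. Atp5g1, a subunit c gene of the ATP synthase, was at 15.3, 7.35 and 19.3 CPM in knockout and at 48.7, 35.3 and 51.5 CPM in wild type. Rpl37a, of the large ribosomal subunit, was at 13.7, 7.93 and 15.0 CPM in knockout and at 33.7, 23.6 and 31.2 CPM in wild type. With GC contents of 54 and 47.3%, Atp5g1 and Rpl37a had trend-removed log2 changes of -1.19 and -1.17 (adjusted p = 0.0247 and 0.0259). The other named falls, as log2 changes with the trends removed, were Ppp1r37, of protein phosphatase 1 (-1.31), Ptov1 (-1.27), Ndufb7 of complex I (-1.23), Pde6h (-1.20), Rps15 of the small ribosomal subunit (-1.18), the globin gene Hbb-bs (-1.17), the olfactory receptor gene Olfr1564 (-1.13) and the zinc finger gene Zfp385a (-1.12). Globin and olfactory receptor genes belong to families with shared reads.

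Of the 24 genes named as largest rises and falls, 24 kept their direction under each alternative setting, with and without trend removal. On deposited values 17 of the 24 passed without each of the 6 libraries in turn, and with the trends removed 0 did. No gene of the 24 is called in more than 4 of those 6 trend-removed fits.

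**Figure D2:**
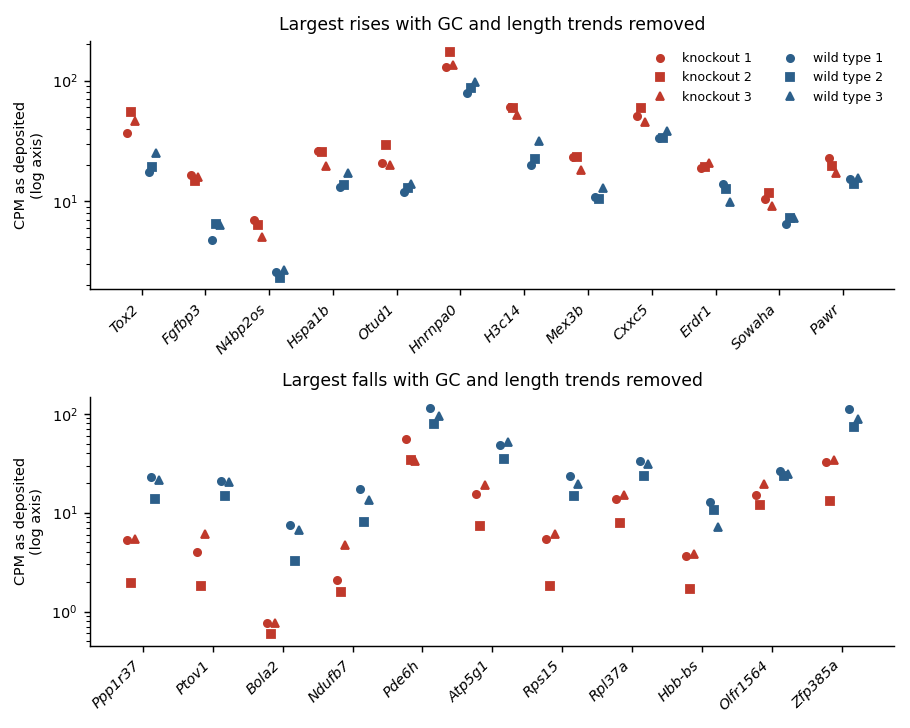
Deposited CPM (log axis) of the 12 largest rises (upper panel) and 11 of the 12 largest falls (lower panel) in each 12-month library, knockout in red on the left and wild type in blue on the right of each gene, with 1 marker shape for each replicate number. In each gene the 3 knockout points lie on one side of the 3 wild-type points, as the naming rule required, and for Pde6h the knockout libraries sit at 33.5 to 55.9 CPM, below 78.4 CPM in the lowest wild-type library.

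Cone genes were lower in knockout. Of 11 tested genes of cone phototransduction 7 fell (63.6%, against 23.5% over all genes) and 1 rose on deposited values. The median log2 change was -0.46, against -0.03 over all genes. With the trends removed 5 fell (45.5%, against 2.18% over all genes), with a median of -0.34 against -0.01 over all genes. Pde6h, the inhibitory subunit of the cone phosphodiesterase, was at 55.9, 33.8 and 33.5 CPM in knockout and at 114, 78.4 and 95.1 CPM in wild type. Gnb3, the beta subunit of cone transducin, was at 55.2, 38.6 and 70.8 CPM in knockout and at 159, 135 and 151 CPM in wild type. Opn1sw, the short-wavelength opsin, was at 180, 147 and 203 CPM in knockout and at 286, 244 and 259 CPM in wild type. The groups were apart in these 3 genes. With the trends removed the log2 changes were -1.20 for Pde6h, -0.81 for Gnb3, -0.45 for Gngt2, the gamma subunit of cone transducin, -0.44 for Opn1sw and -0.34 for Pde6c, the catalytic phosphodiesterase subunit (adjusted p 0.015 to 0.0413). Opn1mw, the middle-wavelength opsin (-0.46, adjusted p = 0.00699), and Gnat2, cone transducin alpha (-0.21, adjusted p = 0.0411), fell on deposited values only. Kcnv2, a channel subunit of rods and cones, rose there (0.25, adjusted p = 0.0292). Cone arrestin Arr3 (-0.50) and the channel subunits Cnga3 (-0.31) and Cngb3 (0.23) did not pass. The list median was negative in each of 19 alternative settings on deposited values and 20 with the trends removed, and without each library in turn 5 to 6 members fell on deposited values and 0 to 3 with the trends removed. In bulk RNA fewer cells of a type and less RNA per cell cannot be told apart.

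**Figure D3:**
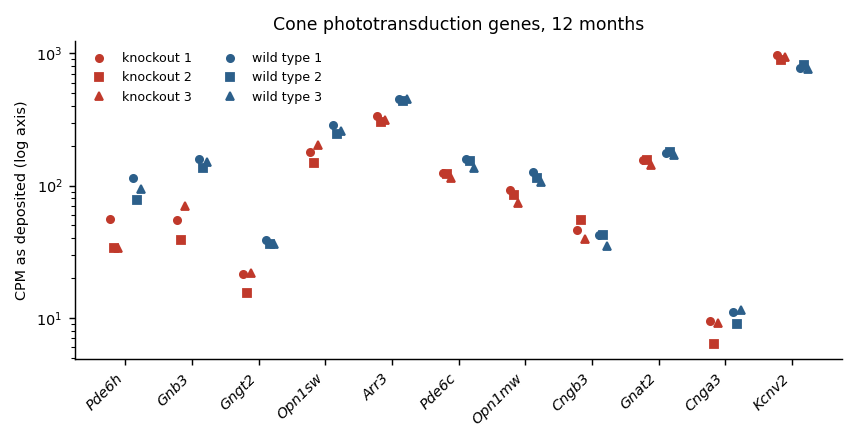
Deposited CPM (log axis) of the 11 cone phototransduction genes in each 12-month library, ordered by the trend-removed log2 change, knockout in red on the left and wild type in blue on the right. Pde6h, Gnb3, Gngt2 and Opn1sw show the knockout points below the wild-type points, while Kcnv2 shows them above.

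Rod genes changed in part. Of 10 tested rod phototransduction genes 5 fell (50%, against 23.5% over all genes) and 0 rose on deposited values. Pde6g alone fell with the trends removed. Pde6g, the inhibitory subunit of the rod phosphodiesterase, was at 298, 158 and 297 CPM in knockout and at 709, 572 and 617 CPM in wild type (-0.72 with the trends removed, adjusted p = 0.0361). Gnat1, rod transducin alpha (-1.05, adjusted p = 0.00474), Cngb1, of the rod channel (-0.79, adjusted p = 0.00352) and the catalytic subunit gene Pde6b (-0.35, adjusted p = 0.0458) fell on deposited values. The partner catalytic subunit Pde6a was at 2282, 2348 and 2394 CPM in knockout and at 2282, 2364 and 2347 CPM in wild type, where the groups overlapped. Of 12 genes of photoresponse recovery 5 fell (41.7%) and 1 rose (8.33%) on deposited values. Among them were Sag, rod arrestin (-0.68, adjusted p = 0.00687), and Guca1b, a guanylate cyclase activator (-0.95, adjusted p = 0.00512), whose value is listed again on a patch scaffold with the same numbers. After trend removal 0 fell and Gucy2e, a guanylate cyclase, rose (0.29, adjusted p = 0.042), with overlapping groups on deposited values.

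The photoreceptor transcription factors Crx (0.05) and Nrl (-0.21) did not pass, while Neurod1, a proneural factor kept in photoreceptors, rose in both fits. Neurod1 was at 513, 582 and 470 CPM in knockout and at 252, 246 and 290 CPM in wild type (0.99 ± 0.20, adjusted p = 0.00435; 0.72 with the trends removed, adjusted p = 0.0452). It was the member of 13 that passed with the trends removed. Of 16 outer segment genes 7 fell (43.8%) and 3 rose (18.8%, near the share over all genes) on deposited values and 0 passed with the trends removed. Of 43 genes of the connecting cilium and its transport 10 rose (23.3%) and 8 fell (18.6%) on deposited values, near the 16.1% and 23.5% over all genes, among them Rpgr (0.70, adjusted p = 0.00237) and Cep290 (0.53, adjusted p = 0.00386) higher and Unc119 (-1.14, adjusted p = 0.00398) lower. Rab28, a GTPase of photoreceptor cilia, alone rose after trend removal (0.25, adjusted p = 0.0477).

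Energy metabolism genes of the nucleus and of the mitochondrial genome went opposite ways, and their GC contents also differed. Of 25 glycolysis and lactate genes 20 fell (80%, against 23.5% over all genes) and 2 rose on deposited values (median -0.56). With the trends removed 6 fell (24%, against 2.18% over all genes) and 0 rose (median -0.28). Aldoa, aldolase A, was at 251, 129 and 287 CPM in knockout and at 773, 612 and 618 CPM in wild type. Gapdh was at 390, 206 and 415 CPM in knockout and at 886, 758 and 774 CPM in wild type. Aldoa and Gapdh were lower in each knockout library than in any wild-type library. The 6 that fell in both fits were Aldoa (-1.01 with the trends removed), Tpi1 (-0.75), Gpi1 (-0.75), Pfkl (-0.74), Gapdh (-0.73) and Pfkm (-0.37), enzymes of the upper and middle pathway (adjusted p 0.025 to 0.0409). Ldha, lactate dehydrogenase A, fell on deposited values (-0.70, adjusted p = 0.00727) and had a trend-removed log2 change of -0.41 (adjusted p = 0.0721). Hk2, the hexokinase of photoreceptors, rose on deposited values (0.41, adjusted p = 0.0371), as did Pdha1 of pyruvate dehydrogenase (0.30, adjusted p = 0.0351).

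Of 76 nuclear genes of the respiratory chain and ATP synthase 42 fell (55.3%) and 2 rose on deposited values (median -0.44). With the trends removed 10 fell (13.2%, against 2.18% over all genes) and 0 rose (median -0.15). Among the 10 were Atp5d of the ATP synthase (-1.1), the complex I genes Ndufa2 (-0.96) and Ndufa11 (-0.76) and Cyc1, cytochrome c1 (-0.87), as trend-removed log2 changes. Of 13 genes of the mitochondrial genome 9 rose (69.2%, against 16.1% over all genes) and 0 fell on deposited values (median 0.68). With the trends removed mt-Nd3 and mt-Nd6, both of complex I, rose (list median 0.31, or -0.09 under quantile normalization). mt-Nd3 was at 1844, 2256 and 1388 CPM in knockout and at 723, 821 and 862 CPM in wild type. mt-Nd6, on the other strand of that genome, was at 35.2, 56.4 and 37.0 CPM in knockout and at 18.7, 16.8 and 12.7 CPM in wild type. In all 13 genes the knockout libraries lay above the wild-type libraries. All genes listed on the mitochondrial chromosome, not only these 13, together held 10.4, 12.6 and 9.94% of the signal in knockout. In wild type they held 7.81, 8.29 and 7.36%. Among 23 import genes the small chaperones Timm9 (0.34), Timm8a1 (0.71) and Timm10b (0.54) rose and Timm22 (-0.64) and Timm21 (-0.38) fell with the trends removed.

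Most cytosolic ribosomal protein genes were lower, while other genes of protein synthesis went both ways. Of 81 tested cytosolic ribosomal protein genes 52 fell (64.2%, against 23.5% over all genes) and 2 rose on deposited values (median -0.63). With the trends removed 16 fell (19.8%, against 2.18% over all genes; median -0.29), while Rps20 rose (0.52, adjusted p = 0.0474) with overlapping groups. Rpl8, of the large subunit, was at 8.64, 4.59 and 9.39 CPM in knockout and at 33.3, 20.9 and 28.4 CPM in wild type. Rplp0, of the ribosomal stalk, was at 16.3, 8.99 and 16.7 CPM in knockout and at 43.5, 34.7 and 36.8 CPM in wild type. In both genes the highest knockout library stayed under the lowest wild-type library, and their trend-removed log2 changes were -0.99 and -0.95 (adjusted p = 0.0265 and 0.0253). Ribosomal protein genes have many pseudogenes that share reads. The median of the list was negative under each alternative setting, from -0.47 to -0.19 with the trends removed, and without 1 library 0 to 18 members fell. Of 50 translation factors 24 fell (48%) and 12 rose (24%) on deposited values, both above the 23.5% and 16.1% over all genes. With the trends removed 5 fell (10%), Eef1a2 (-0.90), Eef2 (-0.84), Eif3k (-0.76), Eif3f (-0.54) and Eef1g (-0.42). Of these the Eef genes act in elongation and the Eif3 genes in initiation. Of 78 mitochondrial ribosomal proteins 30 fell (38.5%) and 1 rose on deposited values. With the trends removed 1 fell (1.28%), Mrpl27 (-0.43). There 3 rose (3.85%, against 2.26% over all genes), Mrpl52 (0.55), Mrpl55 (0.45) and Mrpl18 (0.43), of which Mrpl55 and Mrpl18 overlapped between the genotypes. Of 36 proteasome genes 16 fell (44.4%) and 3 rose (8.33%) on deposited values. Psmb5 (-0.75), Psmc5 (-0.41) and Psmb1 (-0.34) fell with the trends removed. Of 27 lysosomal genes 13 fell (48.1%) and 2 rose (7.41%) on deposited values. Ctsb (-0.65) and Ctsd (-0.58), which encode cathepsins, and Psap, the precursor of the saposins (-0.42), fell with the trends removed.

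Synaptic vesicle genes fell mostly on deposited values. Of 34 genes of synaptic vesicles and SNARE complexes 20 fell (58.8%) and 2 rose (5.88%) there (median -0.43). With the trends removed Cplx3 and Sncb fell (median -0.05). Cplx3, a complexin of photoreceptor and amacrine cell synapses, was at 70.5, 50.4 and 77.2 CPM in knockout and at 171, 118 and 140 CPM in wild type (-0.76 with the trends removed, adjusted p = 0.0203). Sncb, beta-synuclein, was at 30.4, 22.3 and 30.0 CPM in knockout and at 75.7, 55.8 and 68.1 CPM in wild type (-0.44 with the trends removed, adjusted p = 0.0209). Neither gene overlapped between the genotypes. Rab3a, a vesicle GTPase, fell on deposited values at its locus on chromosome 8 (-0.79, adjusted p = 0.00311) and did not pass with the trends removed (-0.12). A second listing of Rab3a on a patch scaffold has other values (-2.49). Of 48 neurotransmitter receptor genes 15 rose (31.2%) and 4 fell (8.33%) on deposited values, against 16.1% and 23.5% over all genes. Gabrd, the delta subunit of GABA receptors, alone fell with the trends removed (-0.60, adjusted p = 0.0365). Of 91 voltage-gated and potassium channel genes 15 rose (16.5%) and 26 fell (28.6%), near the 16.1% and 23.5% over all genes, and with the trends removed Kcnab2, a potassium channel beta subunit, fell (-0.85, adjusted p = 0.0177) while Kcna5 (0.54, adjusted p = 0.0403, with overlapping groups) and Kcnj14 (0.30, adjusted p = 0.0403) rose. Kcnj14 was the gene called in opposite directions, since it fell on deposited values (-0.34, adjusted p = 0.0462).

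Among markers of inner retinal cell types Onecut1 and Thy1 passed with the trends removed. There 0 of 16 bipolar, 0 of 16 amacrine and 0 of 15 Mueller glia markers passed, counts that lists of this size cannot set apart from the 4.44% over all genes, and their medians were -0.01, 0.07 and -0.01. Onecut1, a transcription factor of horizontal cells, rose (0.64, adjusted p = 0.0436), at 7.74, 5.2 and 6.39 CPM in knockout and at 3.86, 3.74 and 4.11 CPM in wild type. Of 6 horizontal cell markers 4 rose on deposited values (66.7%, against 16.1% over all genes), and 0 passed there with a sex term or in the male libraries. Calb1 (0.49) and Prox1 (0.40) were among the 4, and their trend-removed changes were -0.07 and 0.18. Thy1, a surface protein of ganglion cells, fell in both fits (-1.11 and -0.49, adjusted p = 0.00281 and 0.0306), while the other 14 ganglion cell markers did not pass with the trends removed and the list median there was 0.26.

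Of 15 microglia and macrophage markers 8 fell (53.3%, against 23.5% over all genes) and 0 rose on deposited values (median -0.50), among them the complement genes C1qb (-1.11, adjusted p = 0.00283) and C1qc (-0.81, adjusted p = 0.00406). Cx3cr1, the fractalkine receptor of microglia, alone fell with the trends removed (-0.44, adjusted p = 0.0497), at 4.00, 4.33 and 4.03 CPM in knockout and 6.44, 6.71 and 5.57 CPM in wild type. The median of the list was -0.13 there and 0.04 in the male libraries. On deposited values 7 of 19 endothelial and pericyte markers fell (36.8%), 6 of 11 antigen presentation genes (54.5%) and 6 of 14 complement genes (42.9%). Another complement gene, Cd46, which encodes a complement regulator, rose (0.67, adjusted p = 0.0245). The 5 of 19 interferon response genes (26.3%) and 4 of 14 gliosis genes (28.6%) that fell are near the share over all genes. With the trends removed 0 of each of these 5 lists passed. Gfap, of reactive glia, was at 4.54, 3.97 and 9.49 CPM in knockout and at 9.77, 12.3 and 11.3 CPM in wild type (-0.87, adjusted p = 0.0176; -0.32 with the trends removed, adjusted p = 0.444). Edn2, induced in stressed photoreceptors, was at 1.46, 1.68 and 2.90 CPM in knockout and at 7.83, 9.90 and 6.88 CPM in wild type (-1.63, adjusted p = 0.00346; -0.92 with the trends removed, adjusted p = 0.0835). Among 6 tested partners and adaptors of PILR receptors 3 fell on deposited values (50%, against 23.5% over all genes) and 0 passed with the trends removed. The 3 were Npdc1, a ligand gene (-0.87, adjusted p = 0.00644), Tyrobp, which encodes DAP12 (-0.76, adjusted p = 0.0111), and Ptpn11, which encodes the phosphatase SHP2 (-0.28, adjusted p = 0.0278). Of 25 tested orthologs of macular degeneration genes 7 fell (28%) and 3 rose (12%) on deposited values, near the shares over all genes, and 0 passed with the trends removed. Apoe was among those that fell (-1.56, adjusted p = 0.0034).

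Genes of splicing were higher. Of 52 hnRNP, SR and related splicing factor genes 30 rose (57.7%, against 16.1% over all genes) and 7 fell (13.5%) on deposited values (median 0.37). The median GC content of this list, 44.8%, is low. With the trends removed Hnrnpa0 (1.29), Srsf2 (0.41), Srsf10 (0.32) and Hnrnpll (0.25) rose and Srsf5 (-0.42) fell (list median 0.16, or -0.06 under quantile normalization). Srsf2, an SR protein, was at 484, 501 and 474 CPM in knockout and at 302, 345.3 and 349 CPM in wild type. Of 366 members of the Zfp zinc finger family, also poor in GC (44.6%), 133 rose (36.3%) and 46 fell (12.6%) on deposited values. With the trends removed 8 rose (2.19%, near the 2.26% over all genes) and 3 fell (0.82%), with a median of 0.01. Zfp369 (0.58, adjusted p = 0.0156) and Zfp968 (0.57, adjusted p = 0.0389) rose in both fits. Among 16 clock genes Nr1d2 (0.30), Cry1 (0.51) and Tef (0.51) rose with the trends removed, while Dbp (-0.82) and Nr1d1 (-1.20) fell on deposited values only. The time of day of sampling is not in the labels. Zbtb16, induced by glucocorticoids, rose in both fits (0.45 and 0.83). Hsf1, the heat shock transcription factor, fell in both (-1.44 and -0.76), in contrast to Hspa1b. Of 13 tubulin genes 12 fell (92.3%) on deposited values (median -0.73) and Tubb5 alone fell with the trends removed (-0.54, adjusted p = 0.0248).

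Transcripts of tissues other than the retina differed between the groups too. The 5 erythrocyte genes summed to 9.94, 4.33 and 8.95 CPM in knockout and to 34.1, 27.9 and 19.2 CPM in wild type. On deposited values 5 of 5 fell (100%, against 23.5% over all genes). Pigment epithelium markers summed to 70.5, 154 and 79.1 CPM in knockout and to 301, 297 and 86.5 CPM in wild type, so that both high libraries were the female wild-type ones. The fibrinogen genes Fga (1.3, adjusted p = 0.0177) and Fgg (1.13, adjusted p = 0.0403) rose with the trends removed. Fga was at 3.73, 2.59 and 2.59 CPM in knockout and at 0.306, 0.706 and 1.11 CPM in wild type. The part of blood or adjoining tissue in the other results was not tested.

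**Figure D4:**
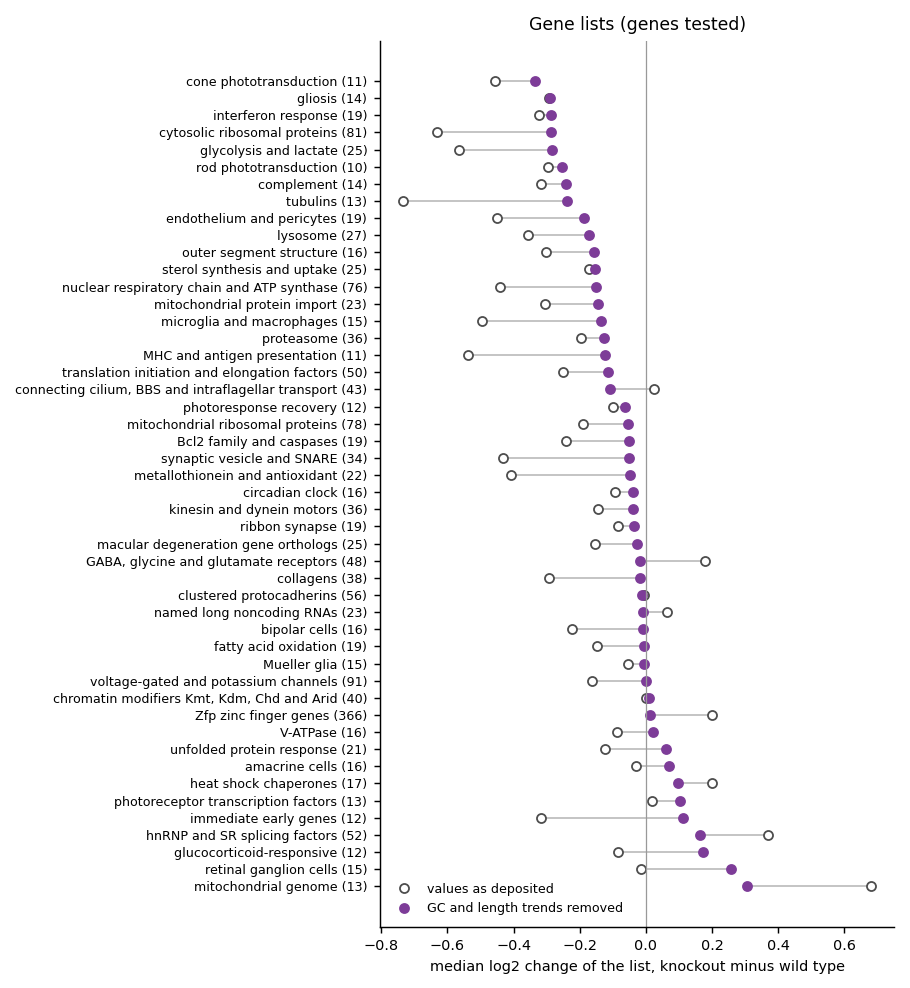
Median log2 change of the gene lists with at least 10 tested genes (horizontal axis, knockout minus wild type), as deposited (open circles) and with GC and length trends removed (filled circles), with the number of genes tested in parentheses. Removal of the trends takes the median from -0.63 to -0.29 for cytosolic ribosomal proteins and from -0.43 to -0.05 for synaptic vesicle genes, while that of cone phototransduction moves from -0.46 to -0.34.

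Near the deleted locus on chromosome 5, 54 genes within 1 Mb were tested. On deposited values 25 fell and 3 rose, against 23.5% and 16.1% over all genes. With the trends removed 1 passed in each direction, near the 2.18% lower and 2.26% higher over all genes. The median log2 change was -0.49 as deposited and -0.01 with the trends removed. Tfr2, transferrin receptor 2, was at 2.41, 1.87 and 2.75 CPM in knockout and at 1.39, 1.42 and 1.48 CPM in wild type (trend-removed log2 change 1.1, adjusted p = 0.00982; 0.45 as deposited, adjusted p = 0.0748). Gnb2, a G protein beta subunit, was at 2.33, 1.38 and 4.03 CPM in knockout and at 11.8, 7.73 and 12.4 CPM in wild type (-0.94, adjusted p = 0.0408; -1.74 as deposited, adjusted p = 0.00315).

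Coding genes whose most abundant transcript, of any type, has 1 exon passed more often as higher than as lower in knockout once the trends were removed. The pattern was noticed after values were seen, and such genes can have other transcripts with introns. Among 440 coding genes whose most abundant transcript has 1 exon, 50 passed as higher (11.4%) and 5 as lower (1.14%), with a median log2 change of 0.18. Among 1232 coding genes with 2 exons 4.06% were higher and 1.46% lower, and in classes with more exons at most 2.29% were higher. Of the 9 coding genes among the named rises with a known exon count 5 had 1 exon, namely Hspa1b, Hnrnpa0, Otud1, H3c14 and Sowaha, and of the 12 named falls 0 did. In single libraries the median deviation of the 440 genes from the mean of the 6 libraries was 0.08, 0.13 and 0.05 in knockout and -0.11, -0.06 and -0.09 in wild type. Among 121 lincRNAs with 1 exon 2 were higher and 0 lower. At P28 the median of the 440 genes was -0.04.

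**Figure D5:**
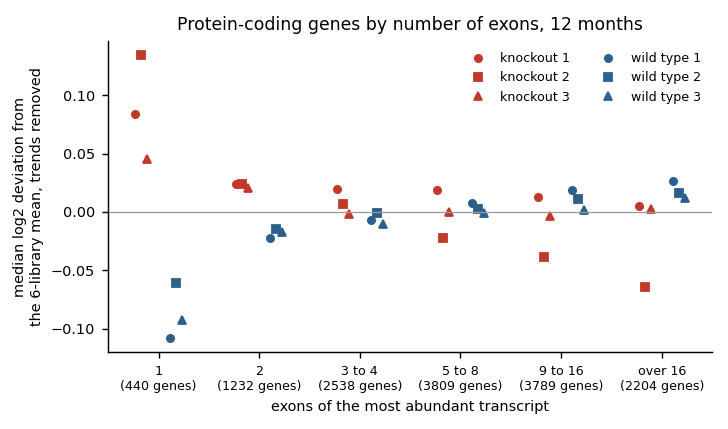
Median log2 deviation from the mean of the 6 libraries (vertical axis, GC and length trends removed) of protein-coding genes grouped by the number of exons of their most abundant transcript (horizontal axis), 1 point for each 12-month library, knockout in red on the left and wild type in blue on the right. Genes with 1 exon lie at 0.05 to 0.13 in knockout and -0.11 to -0.06 in wild type, and genes with 5 to 8 exons lie within 0.03 of 0 in each library.

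Shares of transcripts within their gene were compared for 29682 transcripts, from deposited RPKM. On deposited values 2041 shares passed (6.88%), 911 higher (3.07%) and 1130 lower (3.81%). With the trends removed 807 of 29193 passed (2.76%), 339 higher (1.16%) and 468 lower (1.6%), and 711 (2.44%) passed in the same direction in both. Without wild-type library 1 40 and 28 shares passed in these fits, without knockout library 2 94 and 60, without wild-type library 3 101 and 67, without wild-type library 2 248 and 111 and without knockout library 1 803 and 450. Transcripts annotated with a retained intron had more rises than falls. Of 7635 such transcripts 405 were higher (5.3%) and 108 lower (1.42%) on deposited values, and 114 were higher (1.49%) and 49 lower (0.642%) with the trends removed. Of 15795 coding transcripts 152 were higher (0.962%) and 330 lower (2.09%) with the trends removed. Transcripts marked for nonsense-mediated decay, with 18 higher (0.91%) and 33 lower (1.67%) of 1978, were near the 1.16% and 1.6% over all transcripts. The median share of retained-intron transcripts was 10.5, 10.2 and 10.7% in knockout and 9.54, 9.96 and 10.01% in wild type.

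Single transcripts switched between listed and not listed, where a 0 can be a failed estimate of the quantification. Mpc1-203, a coding form of a mitochondrial pyruvate carrier gene, was listed at 0 in the 3 knockout libraries and took 37.4, 41.0 and 32.7% of the gene in wild type. Pcbp2-214, of a poly(C)-binding protein gene, was likewise listed at 0 in knockout and took 13.2, 6.47 and 8.89% in wild type. In the same way Pdc-203 of phosducin and Itm2b-202 were at or near 0 in each knockout library and at 7.94 to 21.5% and 22.6 to 39.9% in wild type. Pacsin2-206, of an endocytic adaptor gene, took 20.2, 34.6 and 18.1% in knockout and under 0.002% in each wild-type library. Rabgef1-202, of a Rab exchange factor gene, took 16.7, 13.3 and 9.71% in knockout, against 0, 0 and 0.0406% in wild type. The groups were apart in each of these transcripts, and each passed in both fits (adjusted p up to 0.0381 with the trends removed). Of the 12 transcripts that the naming rule gave, 4 passed with a sex term, on deposited values and with the trends removed, and 2 passed without wild-type library 1, without wild-type library 3 or without knockout library 2. With replicate number as a block 4 passed on deposited values and 1 with the trends removed. Further rises were in Hnrnpa1-205 (9.42 to 35.0% in knockout), Tceal9-202 (22.1 to 54.8%), Matr3-204 (2.80 to 10.5%) and Gnas-214 (2.52 to 6.37%), which were at 0 to 1.72% in the wild-type libraries.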

How the data were processed

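Retinal poly(A) RNA of 12 mouse libraries was measured, 3 in each of 4 groups. Per the labels' protocols, stranded mRNA libraries were sequenced as paired reads. Per the submitters' processing notes, the tools were kallisto 0.45.0 for transcript quantification, with Ensembl 102, tximport 1.30.0 for gene summaries and edgeR 4.0.3 for scaling. The authors deposited gene values as CPM on TMM-scaled library sizes, treated here as a signal, and transcript values as RPKM. No table of counts was used and no count model was run, and depth is an estimate from the smallest step between a library's values. Between 11.0 and 15.9% of low values in the 12-month libraries are whole reads to within 0.01 reads. The notes name a human build, but 51903 of 53028 gene IDs were found in the mouse GRCm38 annotation, which supplied GC content and length.

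Genes reaching 1 CPM in 3 or more of the 12 libraries entered limma 3.58.1 (R 4.3.3) on log2(CPM + 1), with 4 group means and an eBayes trend. The Benjamini-Hochberg threshold was 0.05. Fold changes on this scale understate changes of low genes. Trends were removed from each library with splines of 5 degrees of freedom on GC and log length. Transcript shares used RPKM + 0.5, for transcripts at an RPKM of 1 in at least 3 libraries. Lists use main chromosomes, since 196 tested genes are listed on other scaffolds. Genes were named by rule: the targeted genes, the 12 largest rises and falls with trends removed that passed in both fits, up to 4 list members by smallest p, called genes within 1 Mb and members that make a count clear. Some items that these rules name are not reported here. The members and lists were chosen with earlier results of these data known. Sex was read from Xist above 100 CPM. Alternatives were other pseudocounts, filters, scalings, variance models, spline settings, a sex term, male libraries, a replicate block, an adjusted p of 0.10 and each library left out. Simulated data were used to test the gene fits with and without trend removal and the transcript share fit without it. Figures used Python 3.11.15, pandas 2.3.3 and matplotlib 3.10.9.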

Additional observations from a re-analysis of the deposited data

Results flagged for a closer look

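The knockout effect was compared between ages by an interaction term in the same limma fit. Only genes picked for naming were looked at, many of them by their 12-month results, which also enter the interaction. Of these, 8 differed at an adjusted p under 0.05 in at least one fit. The share over all tested genes is not given here, so the count cannot be set against it. Values are the log2 effect at 12 months minus that at P28. On deposited values mt-Nd3 differed by 1.80 (adjusted p = 0.0244), mt-Nd2 by 1.45 (adjusted p = 0.0478) and Hk2 by 1.24 (adjusted p = 0.041), since each was higher in knockout at 12 months and had a negative log2 change at P28. Srsf3, an SR splicing factor, differed by 0.802 (adjusted p = 0.041). Cx3cr1 differed by -1.05 (adjusted p = 0.0478), Cpt1a, of fatty acid oxidation, by -0.85 (adjusted p = 0.041) and the collagen gene Col23a1 by -0.894 (adjusted p = 0.0478). Once the trends with GC content and length were removed, these 7 genes had adjusted p from 0.0569 to 0.291. Kcnj14 differed by 0.268 on deposited values (adjusted p = 0.338) and passed with the trends removed (0.77, adjusted p = 0.0459).

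The knockout libraries at P28 comprise 1 male and 2 female libraries by Xist, against 3 male libraries at 12 months. The wild-type libraries go the other way, with 3 male at P28 and 1 male and 2 female at 12 months. The sex difference between the genotypes is thus reversed between the ages, and its part in these differences was not tested. Dixon's check for an outlying sample needs 4 or more samples and was not run on these groups of 3 libraries.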

How the results depend on the processing

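On deposited values the count of 6536 genes was within 1.5 times under 13 other settings, and the male libraries gave 2597. Leaving out 1 library gave 3552 to 6607. With the trends removed, 723 genes became 1847 at an adjusted p of 0.10, 2268 with a pseudocount of 5, 9317 without a filter, 1776 after quantile normalization, 1761 from the 12-month libraries alone, 2374 with array weights, 0 with a sex term and 2 in the male libraries, and 2 to 645 without 1 library. The 2041 transcript shares became 5052 at an adjusted p of 0.10, 250 with a sex term, 52 in the male libraries and 40 to 1950 without 1 library. The 807 shares with the trends removed became 2835 at an adjusted p of 0.10, 1218 with a filter at an RPKM of 3, 90 with a sex term, 41 in the male libraries and 28 to 879 without 1 library. The causes of these differences were not tested, and the fits that leave libraries out also have fewer samples. After quantile normalization with the trends removed, Rab28 (-0.0163, adjusted p = 0.889) and Kcnj14 (-0.0841, adjusted p = 0.582) changed sign. The targeted genes' levels moved by less than the spread between libraries.

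Replicate numbers are shared between the genotypes. On deposited values same-numbered libraries deviated with correlations of 0.0989, 0.309 and 0.156, but wild-type library 1 correlated best with knockout library 3 (0.131). With the trends removed the same-numbered correlations were 0.0758, 0.141 and 0.0672. There wild-type library 1 correlated best with knockout library 1, ahead of knockout library 3 (0.0508). The main fits did not take the numbers as pairs, and whether they mark pairs or batches was not tested. With the replicate block 6860 genes passed on deposited values and 570 with the trends removed, and 164 and 11 transcript shares. Of the 12 transcripts named by rule, 4 and 1 passed with the block.

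Depth limits what can be said of genes near the floor of 3 reads, Pilrb1 and Pilrb2 among them.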
